A study of Rattus norvegicus with 24 samples.

Results

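The comparison described here set left ventricles of Dahl salt-sensitive rats on a high salt diet at 3 weeks against ventricles of the same strain and week that had received no extra salt. Dahl salt-sensitive rats are an inbred strain in which dietary salt raises blood pressure, and the left ventricle then thickens against that load. Members were chosen by the sample titles: 3 high salt arrays, 3 control arrays and 1 exercise array of 3 weeks, 7 of the 24 deposited columns and of the 22 distinct arrays of the series. Rats of every group arrived at 5 weeks of age and entered the study at 6 weeks of age. The high salt rats were given chow containing 6% NaCl, and the controls were untrained, age-matched rats on ordinary chow. The exercised rats followed a daily treadmill programme of 6 weeks in all, with 3 weeks of rising load before a maintenance stage of daily 90 min runs at 16 m/min, the belt tilted by 5 degrees. The series used salt to produce pathological and exercise to produce physiological hypertrophy. The labels do not say from when the 3 weeks were counted, and they do not give sex, blood pressure or heart weight.

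The exercise columns numbered 2 and 3 at 3 weeks held the same 8799 values as the control columns numbered 2 and 3. Each of these arrays therefore carried a control and an exercise label, and the 4 distinct arrays without salt were treated as one non-salt group, which mixes sedentary and possibly trained rats. The arrays with both labels are called control 2 and control 3 below, so values given for the controls may include trained rats. Whether the arrays stem from separate animals is unstated, so the p-values reflect array-to-array spread alone, which may be technical. Values are deposited intensities, which had been scaled to a common level before deposit, and changes are log2 differences ± SE from limma on log2(intensity + 40). No counts or detection calls stand behind the intensities, and precision is limited by how many arrays there are.

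When a ventricle is stretched or works against high pressure, its myocytes restart genes of the fetal heart. Among these are Nppa and Nppb, which encode the atrial and B-type natriuretic peptides, hormones that make the kidney excrete salt and water and relax vessels, and Acta1, the skeletal alpha-actin of the thin filament. Over longer times loaded hearts also remodel the collagen and elastin network around the myocytes and can shift from burning fat toward burning glucose.

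Because Nppa, Nppb and Acta1 passed the test together in the high salt ventricles, the 250 bases before the RefSeq start of each are given, from the GRCr8 assembly. Capitals mark the letters of 4 motifs known from promoters of muscle genes, searched on both strands: the M-CAT box CATTCC, bound by TEAD factors; the GATA site, which was AGATAA or, with a final G, AGATAG, and likewise TGATAA or, with a final G, TGATAG; the CArG box, bound by serum response factor; and the TATA box TATAAA.
Nppa, chr5:163711934-163712183, plus strand: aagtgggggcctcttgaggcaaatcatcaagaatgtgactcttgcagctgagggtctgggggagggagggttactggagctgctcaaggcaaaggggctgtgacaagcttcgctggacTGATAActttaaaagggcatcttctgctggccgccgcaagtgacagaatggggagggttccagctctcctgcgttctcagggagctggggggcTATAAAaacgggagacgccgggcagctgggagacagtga
Nppb, chr5:163699758-163700007, plus strand: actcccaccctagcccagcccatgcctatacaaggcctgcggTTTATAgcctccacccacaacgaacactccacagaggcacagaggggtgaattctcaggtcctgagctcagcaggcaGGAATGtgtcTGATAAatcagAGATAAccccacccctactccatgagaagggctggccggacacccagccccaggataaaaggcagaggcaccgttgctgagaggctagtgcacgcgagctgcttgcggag
Acta1, chr19:68784195-68784444, minus strand: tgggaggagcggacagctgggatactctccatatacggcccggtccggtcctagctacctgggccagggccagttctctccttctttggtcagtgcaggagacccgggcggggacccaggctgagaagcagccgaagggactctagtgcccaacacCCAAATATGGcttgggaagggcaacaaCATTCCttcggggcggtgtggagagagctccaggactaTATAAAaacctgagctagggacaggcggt
Counted back from the start, the Nppa window held a GATA site at positions -132 to -127 and a TATA box at -39 to -34. The Nppb window held an M-CAT box, read on the opposite strand, at -131 to -126, and GATA sites at -121 to -116 and -110 to -105; TATAAA on the opposite strand at -208 to -203 also matched. The Acta1 window held a CArG box at -94 to -85, an M-CAT box at -67 to -62 and a TATA box at -29 to -24. No match overlapped another. Among the 27457 genes with a window of this length in the table, 11.8% held the M-CAT letters, 26.7% a GATA site, 1.5% a CArG box and 13.1% a TATA box. A match is a description of these letters and does not show a bound site.

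Across all 6555 tested probe sets, 10 passed at an adjusted p under 0.05 (limma, Benjamini-Hochberg), and they belonged to 7 genes. Of these, 9 were higher with salt, 0.137% of the tested probe sets, and 1 was lower, 0.0153%. The 9 represented Nppa, with 4 probe sets, Nppb, Acta1, Loxl1, Hba-a3 and Fkbp1a, and the lower one Cbr1. In each of the 10 the high salt and the non-salt arrays did not overlap; over all tested probe sets the arrays did not overlap with salt higher in 6.13% and with salt lower in 8.71%. At an unadjusted p under 0.05 there were 528 probe sets, 8.05% of those tested, and the median log2 difference over all probe sets was -0.055. The count moved with single arrays: with control 1, control 3 or any 1 of the high salt arrays left out no probe set passed in limma, while 366 to 505 remained at an unadjusted p under 0.05. Without control 2 only Nppb passed, with an adjusted p of 0.00245. Without the exercise array 8 probe sets passed, 7 of them among the 10. All 10 kept their sign each time, which was fixed beforehand, since their high salt and non-salt arrays did not overlap. A fit of the 7 arrays of 3 weeks alone, with its own estimate of the spread, called 61 probe sets higher (0.931%) and 39 lower (0.595%), the 10 among them.

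The natriuretic peptides and skeletal actin led the comparison. Nppa at its brightest probe set read 2806, 2847 and 3657 in the controls, 6819 in the exercise array, and 11500.5, 12399 and 11122 with salt. The exercise array was the highest of the non-salt arrays and still lay below every high salt array. The mean was 4032 ± 1899 (SD, n = 4) without salt and 11674 ± 656 (SD, n = 3) with it, and Nppa rose by 1.62 ± 0.31 (adjusted p = 0.0246). The other 3 probe sets of Nppa rose by 1.64 ± 0.32, 1.75 ± 0.31 and 1.91 ± 0.34, with adjusted p from 0.0157 to 0.0333. In each of these 3 as well the exercise array was the highest without salt.

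Nppb read 1479, 2458 and 1265 in the controls, 1249 in the exercise array, and 4992, 4392 and 5839 with salt. Here control 2, not the exercise array, was the highest without salt. The means were 1613 ± 573 (n = 4) and 5074 ± 727 (n = 3), and Nppb rose by 1.68 ± 0.27 (adjusted p = 0.0157), a ratio of means of 3.15. Acta1 read 6983, 8309 and 8000 in the controls, 10188 in the exercise array, and 16967, 14912 and 15778 with salt, with no overlap. It rose by 0.93 ± 0.16 (adjusted p = 0.0157), from 8370 ± 1338 to 15886 ± 1032.

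**Figure D1:**
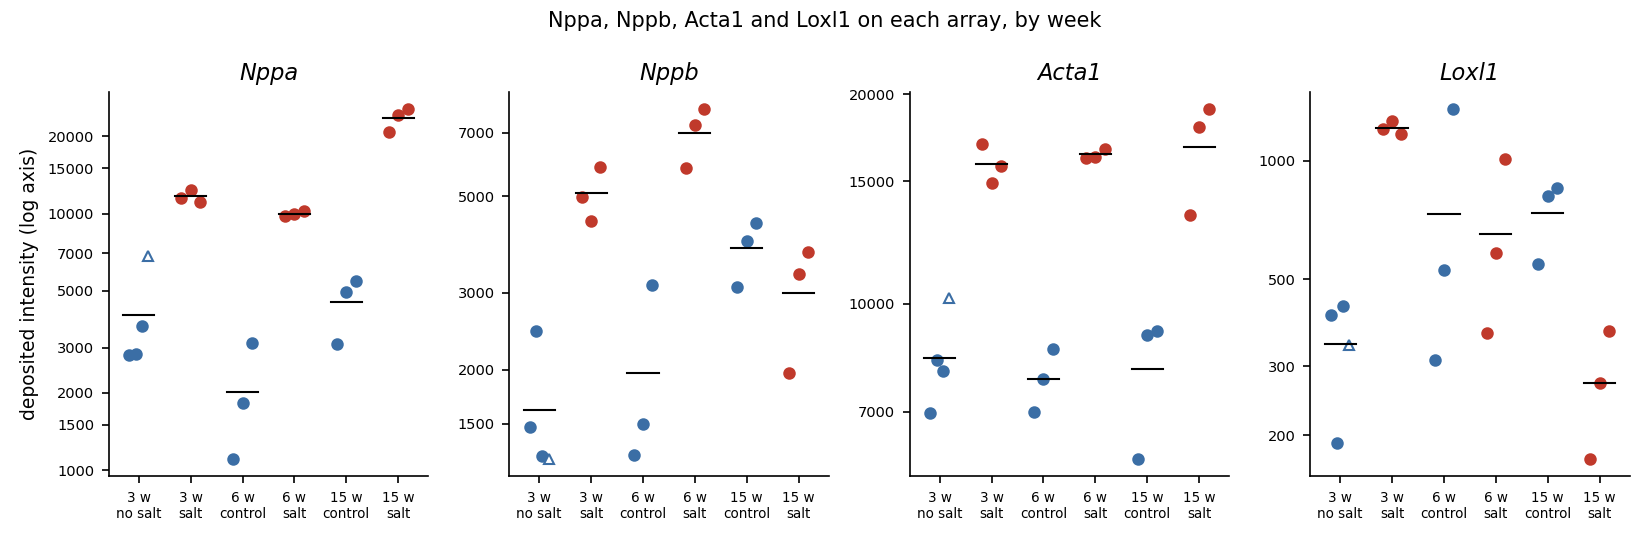
Deposited intensity of Nppa, Nppb, Acta1 and Loxl1 (probe set rc_AA859805_at) on each array, on a log axis, in non-salt or control arrays (blue) and high salt arrays (red) of 3, 6 and 15 weeks; the open triangle is the exercise array of 3 weeks and bars are group means. At 3 weeks all 3 high salt arrays lie above all 4 non-salt arrays in each gene, while at 15 weeks the high salt arrays of Nppb overlap the controls and those of Loxl1 lie below them.

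Of 20 listed fetal and stress genes, 16 were tested and 3 were called, all higher: Nppb, Acta1 and Nppa. The median of the 16 was 0.15, against -0.06 over all 3826 tested genes. Ankrd1, a stretch-responsive repressor of the myocyte nucleus, read 8833 to 12124 without salt and 14720 to 16115 with it. Its difference of 0.57 ± 0.18 did not pass (adjusted p = 0.338), although the arrays did not overlap. The heavy chains of cardiac myosin did not pass: Myh7, the slow isoform, was at 27208 ± 1265 without and 31592 ± 8100 with salt, a difference of 0.19 ± 0.19, and Myh6, the fast isoform, differed by 0.01 ± 0.16, turning to -0.05 after quantile normalization; further probe sets of Myh6 gave 0.60 ± 0.44 and -0.21 ± 0.32. These myosin probe sets are of a kind that can bind several members of a family. Atp2a2, the calcium pump of the sarcoplasmic reticulum, was at 25463 ± 1484 and 25488 ± 3164, and 3 other probe sets of it did not pass either, though 1 of them differed by -0.41 ± 0.15 without overlap. Among 14 tested sarcomere genes only Acta1 was called, and the median was 0.04, or -0.03 after quantile normalization.

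Loxl1, which encodes a lysyl oxidase-like enzyme that crosslinks elastin, had the largest called change outside the natriuretic peptides. It read 406, 191 and 426 in the controls, 341 in the exercise array, and 1209, 1261 and 1172 with salt, a ratio of means of 3.56. It rose by 1.77 ± 0.36 (adjusted p = 0.0374). A brighter probe set of the same gene read 774 to 1296 without salt and 1971 to 2714 with it, a difference of 1.22 ± 0.34 that did not pass (adjusted p = 0.193). Control 2 was the lowest array at both probe sets.

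Loxl1 was not on the extracellular matrix list, of which 34 of 45 genes were tested. None of the 34 was called; 6 had an unadjusted p under 0.05, all 6 higher with salt, where 3.14% of all tested genes were higher at that level and 4.81% lower. The median was 0.17, or 0.19 after quantile normalization, and 24 of the 34 were positive. The 6 were Lox, Eln, Lamc1, Lum, Bgn and Mmp14, the last 2 named after their values were seen. Lox, the lysyl oxidase that crosslinks collagen and elastin, read 112, 132, 125 and 107 without salt and 245, 308 and 190 with it (0.84 ± 0.26; adjusted p = 0.293). Eln, elastin itself, read 769, 553, 660 and 800 against 1299, 1137 and 955 (0.67 ± 0.22; adjusted p = 0.344). Lamc1, a laminin chain of basement membranes, stood at 1897 ± 61.3 against 2906 ± 321, a difference of 0.60 ± 0.20. Lum and Bgn, small proteoglycans of the collagen network, differed by 0.82 ± 0.28 and 0.48 ± 0.19. In Lox, Eln, Lamc1, Lum and Bgn the arrays did not overlap, and in Mmp14, a membrane-bound metalloproteinase, they did. Of all tested probe sets 6.13% were without overlap and higher with salt. The fibrillar collagens differed less: Col3a1 by 0.47 ± 0.30, Col1a2 by 0.34 ± 0.25 and Col1a1 by 0.09 ± 0.27, with adjusted p from 0.764 to 0.968. Col3a1 ran from 3743 to 7267 without salt, control 2 being the lowest, and from 7807 to 8436 with it. Spp1, osteopontin, was dim at 73.0 ± 10.2 and 98.6 ± 39.1 and differed by 0.26 ± 0.38.

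**Figure D2:**
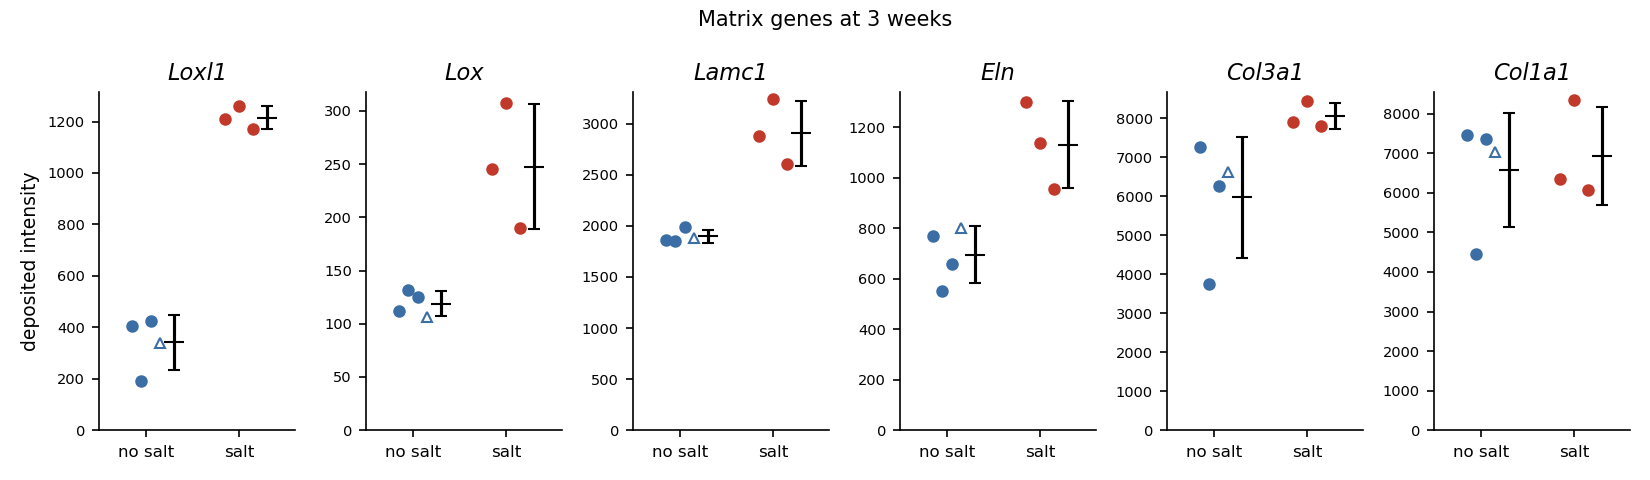
Deposited intensity of 6 matrix genes on each array of 3 weeks, without salt (blue; open triangle, exercise array) and with salt (red), with the mean and SD beside the points and axes starting at 0. Loxl1, Lox, Lamc1, Eln and Col3a1 do not overlap between the groups, Col1a1 does, and only Loxl1 passed the test. In the fit of the 3-week arrays alone Lox and Lamc1 passed too.

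The other called genes had differing roles. Fkbp1a encodes a prolyl isomerase that binds and steadies the ryanodine receptor. It read 1580, 1431 and 1530 in the controls, 1131 in the exercise array, and 2583, 2335 and 2683 with salt, and rose by 0.83 ± 0.15 (adjusted p = 0.0157). Of 3 other probe sets of Fkbp1a none passed, and the brightest differed by 0.43 ± 0.24 (adjusted p = 0.691). On the calcium handling list, where each of 20 tested genes, Fkbp1a among them, was represented by its brightest probe set, none was called or reached an unadjusted p under 0.05, and the median was 0.02.

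Cbr1, a carbonyl reductase that clears reactive aldehydes and ketones, was the gene called lower. It read 837, 732 and 708 in the controls, 701 in the exercise array, and 407, 365 and 460 with salt, and fell by 0.80 on the log2 scale (SE 0.15; adjusted p = 0.0237). Its brighter probe set went from 1106 ± 216 to 602 ± 70.8, a difference of -0.82 ± 0.18 (adjusted p = 0.0766). Of 33 tested antioxidant genes none was called at its brightest probe set. At an unadjusted p under 0.05, where 3.14% of all tested genes were higher and 4.81% lower, 1 was higher and 3 lower. Beside Cbr1 these were Gsta1, a glutathione transferase (-0.95 ± 0.26; adjusted p = 0.201), Gstk1 (-1.40 ± 0.63), where high salt array 1 read 109 and the other two 1039 and 745, and Sod2, the mitochondrial superoxide dismutase (0.76 ± 0.36), named after its value was seen. The probe sets of Cbr1 and Gsta1 can bind related genes. Hmox1, heme oxygenase, differed by 0.27 ± 0.28.

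Hba-a3, an alpha globin, read 538, 618 and 658 in the controls, 508 in the exercise array, and 1307, 1124 and 1147 with salt, and rose by 0.99 ± 0.20 (adjusted p = 0.0374). The beta globin Hbb read 11803 to 14392 without salt and 18745 to 21861 with it, a difference of 0.58 ± 0.15 (adjusted p = 0.133), and Hbb-b1, named after its value was seen, differed by 0.67 ± 0.17 (adjusted p = 0.157). These beta globin probe sets can bind each other's transcripts and are not independent. Of 8 listed red blood cell markers, which did not include Hba-a3 or Hbb-b1, 4 were tested: Hbb and the following 3, and none was called. Alas2, the heme synthesis enzyme of red cell precursors, differed by 0.41 ± 0.22, the anion exchanger Slc4a1 by -0.36 ± 0.17 (0.03 ± 0.20 at a second probe set) and the membrane skeleton gene Epb41 by -0.80 ± 0.23 (adjusted p = 0.216). Their part in the globin difference was not tested. In bulk tissue, more cells of a type and more RNA per cell cannot be told apart.

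Probe sets with the smallest p short of the threshold filled the naming rule to 12 in each direction. On the positive side were Hsp90b1, a chaperone of the endoplasmic reticulum (0.70 ± 0.15; adjusted p = 0.0650), Pkia, an inhibitor of protein kinase A (1.20 ± 0.27; adjusted p = 0.0795), and the G1 cyclin Ccnd1 (1.07 ± 0.24; adjusted p = 0.0850). Hsp90b1 read 1186, 1449, 1293 and 1152 without salt and 2162, 2032 and 2036 with it, and a second probe set gave 0.84 while the last gave 0.15. The brightest probe sets of Pkia and Ccnd1 gave -0.03 ± 0.15 and 0.38 ± 0.27, with overlapping arrays. On the negative side was Aqp1, the water channel of endothelium and red cells, at 5492, 6047, 5205 and 6640 against 2665, 3236 and 2419 (-1.07 ± 0.25; adjusted p = 0.103). Also negative were 4 enzymes of drug and hormone metabolism: Cyp2d2 (-1.06 ± 0.22; adjusted p = 0.0548), Cyp24a1, which inactivates vitamin D (-1.15 ± 0.27), Cyp4b1 (-1.03 ± 0.28) and the sulfotransferase Sult1a1 (-1.33 ± 0.35). Iqgap2, a scaffold protein, differed by -0.63 ± 0.17. Plcl1 read 42.8 to 190 without salt and 7.8 to 24.4 with it at a dim probe set (-1.20 ± 0.29), while its brightest one differed by 0.20 ± 0.38. For Acta2, smooth muscle actin, 1 probe set differed by -1.15 ± 0.30 and the brightest by -0.05 ± 0.23.

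**Figure D3:**
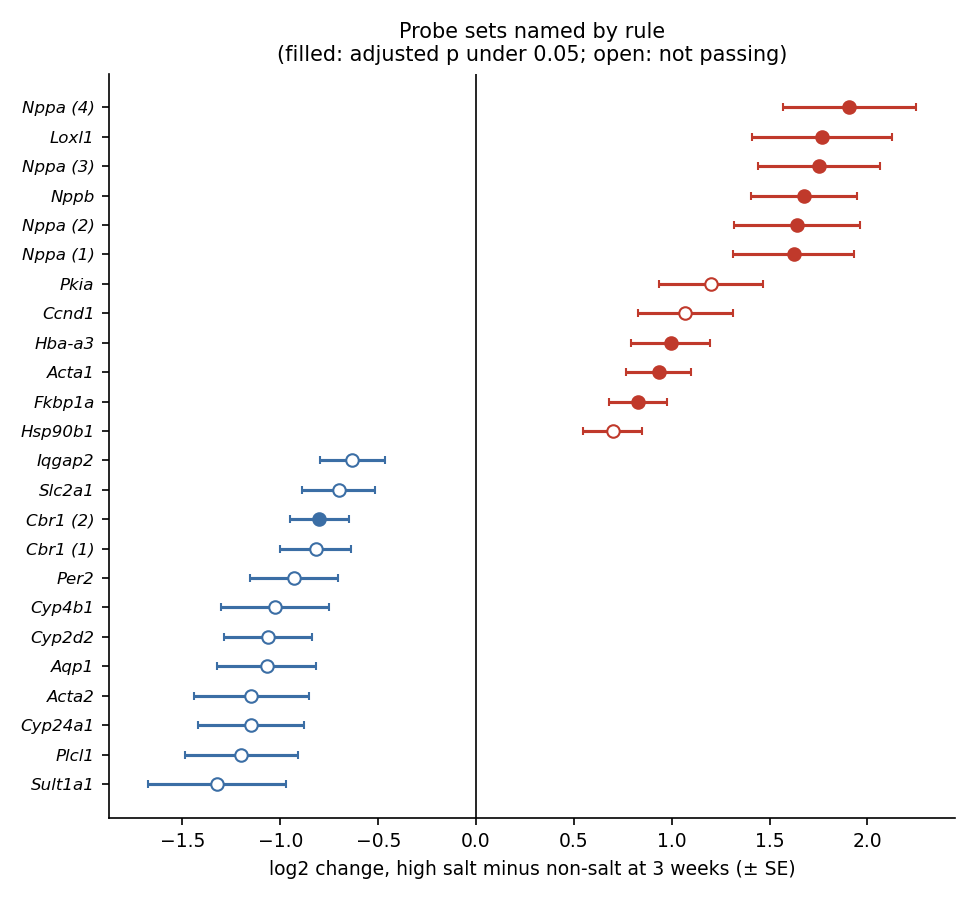
Log2 change ± SE at 3 weeks, high salt minus non-salt, of the 24 probe sets chosen by the naming rule, red where positive and blue where negative; numbers in brackets tell probe sets of one gene apart. Filled points passed at an adjusted p under 0.05: 9 to the right of 0 and Cbr1 to the left.

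Clock genes keep the daily rhythm of heart metabolism. The sample details used here hold no hour of tissue collection, so its part in differences of these genes, at any week, was not tested. Of 18 listed, 9 were tested and none was called, but 3 were higher and 1 lower at an unadjusted p under 0.05. The shares of all tested genes at that level were 3.14% higher and 4.81% lower. Nr1d1, which encodes the clock repressor REV-ERB alpha, read 640, 325 and 799 in the controls, 502 in the exercise array, and 1240, 1287 and 1243 with salt (1.16 ± 0.28; adjusted p = 0.103). Per2, a core clock repressor, read 585, 440 and 568 in the controls, 593 in the exercise array, and 282, 325 and 204 with salt (-0.93 ± 0.22; adjusted p = 0.111). Bhlhe40 and, named after its value was seen, Bhlhe41, a pair of light- and stress-responsive repressors, differed by 0.74 ± 0.22 and 0.83 ± 0.26. In these 4 genes the arrays did not overlap, where 6.13% of all tested probe sets were without overlap and higher, and 8.71% lower. Dbp, a strongly cycling output gene, overlapped and differed by 0.24 ± 0.52.

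Genes of fuel use gave no call, and over all 3826 tested genes 2311, or 60.4%, had a negative value. At an unadjusted p under 0.05 in limma, 4.81% of all tested genes were lower and 3.14% higher. Of 29 tested genes of fatty acid uptake and oxidation 6 were lower and 1 higher at an unadjusted p under 0.05, 21 of the 29 were negative, and the median was -0.15 against -0.06 over all genes. Cpt1a, which admits long-chain fatty acids to mitochondria, read 869, 836, 820 and 898 without salt and 638, 564 and 584 with it (-0.50 ± 0.16; adjusted p = 0.344). Eci1, an isomerase of unsaturated chains, went from 6116 ± 744 to 4034 ± 162 (-0.59 ± 0.18; adjusted p = 0.262), and Hadha, of the trifunctional protein, from 8005 ± 1179 to 5966 ± 504 (-0.41 ± 0.15), while a dimmer probe set of Hadha differed by 0.39 ± 0.28. Ech1, at -0.52 ± 0.20, and Cd36, a fatty acid carrier, at 0.98 ± 0.40, were named after their values were seen. Ucp3 differed by -0.64 ± 0.29, with control 2 at 661 and the other non-salt arrays at 212 to 310. Pdk4, which restrains pyruvate oxidation, was at 275 to 1414 without salt and 478 to 547 with it, a difference of 0.01 ± 0.53, and control 2 was again the highest. Of 24 glucose and glycolysis genes 3 were lower at that level and none higher, 19 were negative, and the median was -0.18. The 3 were Slc2a1, the GLUT1 transporter (-0.70 ± 0.19; adjusted p = 0.192; 0.36 ± 0.32 at a dim second probe set), Eno3, muscle enolase (-0.61 ± 0.26), and the dim Pfkfb1 (-0.73 ± 0.34). None of 38 genes of oxidative phosphorylation and the citric acid cycle reached an unadjusted p under 0.05; 19 were positive and 19 negative, and their range was -0.28 to 0.47.

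**Figure D4:**
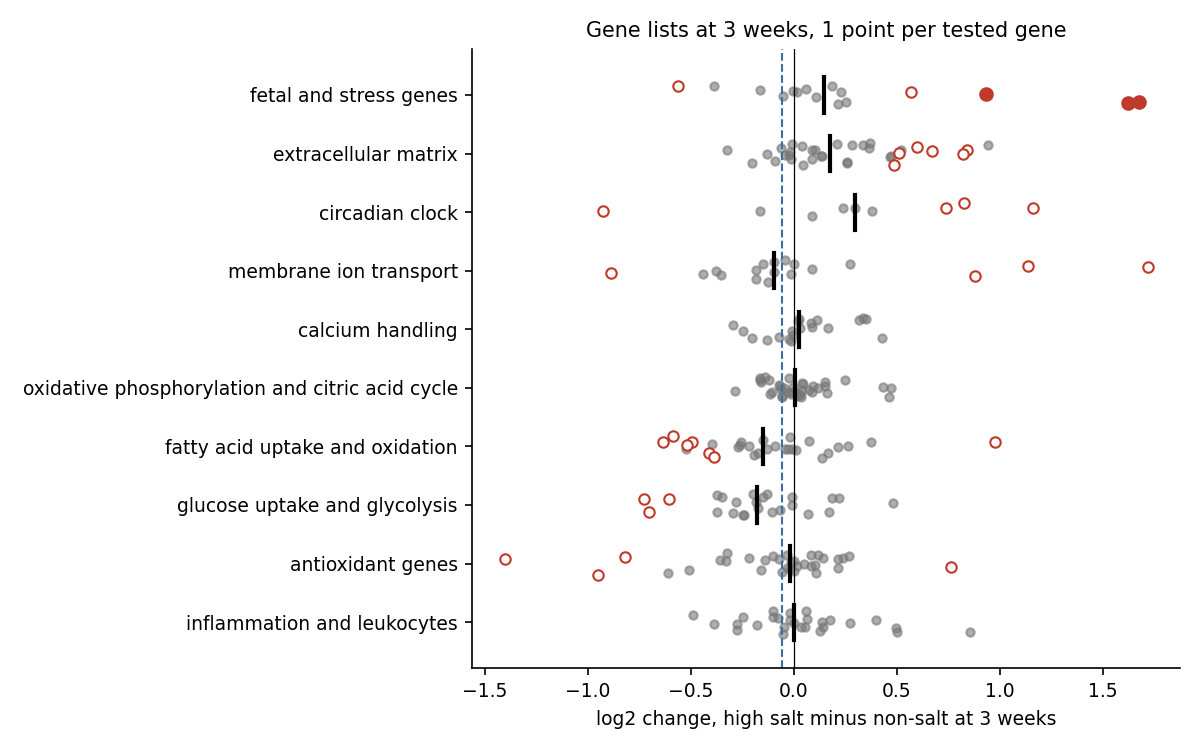
Log2 change at 3 weeks, high salt minus non-salt, of every tested gene of 10 lists, each gene at its brightest probe set. Filled red points were called, open red points had an unadjusted p under 0.05, black bars are list medians, and the dashed line is the median over all 3826 genes, -0.06; filled points appear only in the fetal and stress list, where Nppa, Nppb and Acta1 lie right of 0.9.

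In ion transport the largest difference was that of Gja1, connexin 43 of the gap junctions between myocytes. It read 295, 577 and 565 in the controls, 253 in the exercise array, and 1523, 1204 and 1492 with salt, a difference of 1.72 ± 0.43 that did not pass (adjusted p = 0.133). Of the 18 genes of this list none was called. At an unadjusted p under 0.05, 3 were higher and 1 lower, against 3.14% and 4.81% of all tested genes. The others were the potassium channels Kcnj3 (0.88 ± 0.36), Kcnq1, named after its value was seen (1.14 ± 0.48), and Kcna4 (-0.89 ± 0.30), all dim, at 16.4 to 254.

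Vasoactive genes gave no call among 35 tested. At an unadjusted p under 0.05, 3 were higher and 3 lower, against 3.14% and 4.81% of all tested genes. Adm, the vasodilator adrenomedullin, read 67.9 to 180 without salt and 197 to 260 with it (0.78 ± 0.22; adjusted p = 0.204). Ptgis, prostacyclin synthase, differed by 0.51 ± 0.20, and Ace, the angiotensin-converting enzyme, by -0.56 ± 0.23 (adjusted p = 0.507). Edn1, endothelin 1, and the angiotensin receptor gene Agtr1a were dim, and differed by -0.36 ± 0.27 and -0.14 ± 0.28, a second probe set of Agtr1a giving 0.12 ± 0.38. Among 26 immediate early and transcription factor genes, 2 were higher and 2 lower at an unadjusted p under 0.05. Junb differed by 0.59 ± 0.19 and Nr4a1 by 1.13 ± 0.41, Fosl2 by -0.76 ± 0.30 and Cebpb by -0.56 ± 0.24, and none of these passed. None of 27 inflammation and leukocyte genes reached that level.

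The 9 remaining lists held no call. At an unadjusted p under 0.05, 3 of 45 growth factor and signalling genes, 2 of 11 glucocorticoid-responsive genes, 2 of 15 creatine kinase and nucleotide energy genes and 1 of 28 proteasome and ubiquitin genes were lower, and none of these lists had a higher one. At the same level 1 gene was higher and none lower among 25 chaperones, 13 cell death genes, 24 cell cycle genes, 37 ribosomal protein genes and 19 genes of sterol and lipid synthesis. Shares of all tested genes were 4.81% lower and 3.14% higher. Alox15, a lipoxygenase, was at 462 ± 68.8 without and 474 ± 141 with salt at its brighter probe set, a difference of 0.01 ± 0.19. At the dimmer one it read 170, 131 and 184 in the controls, 129 in the exercise array, and 298, 492 and 292 with salt. There the arrays did not overlap, and the difference of 1.02 ± 0.30 did not pass (adjusted p = 0.262). In the limma fit of the 3-week arrays alone it did (adjusted p = 0.0346), so the probe sets of Alox15 disagree at 3 weeks. Among others, Gja1, Aqp1, Hsp90b1, Lox, Lamc1, Nr1d1, Per2 and Eci1 also had probe sets among the 100 called in that fit.

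RNA measures and markers of other cells were set beside these results. The beta-actin 3' to 5' ratio, which climbs as RNA degrades, was 1.18 to 1.32 without salt and 1.04 to 1.06 with salt, without overlap. An exact permutation test of its mean gave p = 0.0286 (two-sided), the smallest that 35 arrangements allow. The same ratio for GAPDH was 1.05 to 1.18 and 0.994 to 1.075 (exact permutation p = 0.314). With the beta-actin ratio as a covariate, an alternative added after seeing the data, 3 probe sets passed: Nppb with 1.46 ± 0.26, Acta1 with 1.002 ± 0.17 and Fkbp1a with 0.87 ± 0.16, each at an adjusted p of 0.0393. In that fit the brightest probe set of Nppa gave 1.51 ± 0.33 (adjusted p = 0.0985) and Loxl1 1.77 ± 0.39 (adjusted p = 0.0985), Cbr1 -0.79 ± 0.16 and Hba-a3 0.93 ± 0.21. The 10 stayed called when the GAPDH ratio was the covariate. Both covariate fits used the same slope for the arrays of every week. Within groups the ratios spread most in the 6-week controls, at 1.58 to 3.99 for GAPDH and 1.98 to 3.29 for beta-actin. The slopes therefore say little about the 3-week arrays, and the part of RNA quality in the 3-week differences was not tested.

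Markers of the ventricle were bright, and the summed intensity of 10 tested ventricular myocyte markers was 191160 to 214640 without salt and 181310 to 259750 with it. The atrial markers Myl4 and Myl7 summed to 354 to 476 and 270 to 383, overlapping, beside the higher Nppa. Summed levels did not overlap for 4 of the 10 marker lists. For single probe sets, the arrays did not overlap with salt higher in 6.13% of all tested and with salt lower in 8.71%. Red blood cell markers were higher with salt (14249 to 16292 against 20911 to 23586), where Hbb made up most of the sum, and so were leukocyte markers (4774 to 5373 against 5958 to 6265) and nerve markers (1190 to 1377 against 1602 to 1943). Adipocyte markers were lower (4976 to 6220 against 4358 to 4736). Of 3 tested nerve markers only Pmp22 (0.44 ± 0.18) was without overlap by itself. Each of 6 tested adipocyte markers overlapped by itself, and 4 were negative and 2 positive. Among the leukocyte markers Lyz2 differed by 0.85 ± 0.41 without passing, and the other 5 overlapped between the groups. Fibroblast marker sums overlapped, at 26610 to 35577 and 32198 to 38678, beside the matrix genes above. The part of these markers in the gene differences was not tested.

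The 3-week difference departed from that of the same diet at 15 weeks in 157 probe sets, 2.4% of those tested, by an interaction contrast in the same fit, 60 of them (0.915%) shifting up from 3 to 15 weeks and 97 (1.48%) down. The count was 101 without control 2 and 104 without high salt array 3. Nppb and Loxl1, both called at 3 weeks on the difference that the contrast subtracts, were among them. Nppb was at 3799 ± 640 in the controls of 15 weeks and 2999 ± 923 with salt, a difference of -0.37 ± 0.29, so that its salt difference moved by -2.05 ± 0.39 (adjusted p = 0.00458). Nppa and Acta1 were not: their 15-week differences were 2.41 ± 0.33 and 1.07 ± 0.18, and the interaction gave 0.79 ± 0.45 and 0.13 ± 0.24 (adjusted p = 0.518 and 0.887). Loxl1 was at 738 ± 167 in the controls of 15 weeks and 272 ± 97.3 with salt, and its salt difference moved by -3.11 ± 0.52 (adjusted p = 0.00140).

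On the extracellular matrix list 9 of 34 genes moved down between the weeks and 1, Spp1, moved up. Of all tested probe sets 1.48% moved down and 0.915% up. Col3a1 moved by -3.51 ± 0.44, Lum by -2.04 ± 0.41, Col1a2 by -1.93 ± 0.37, Col1a1 by -1.53 ± 0.40 and Eln by -1.32 ± 0.33. All of these had a negative salt difference at 15 weeks. Their 3-week differences were positive, but none was called. That of Col1a1 was 0.09 ± 0.27 and changed sign in some alternatives. The 15-week controls had GAPDH ratios of 1.09 to 1.58, against 1.11 to 1.16 in the 15-week salt arrays. With the GAPDH ratio as a covariate 155 of the 157 remained. The slope of that fit was shared with the 6-week controls, where the ratio spread most. The part of RNA quality at 15 weeks by itself was not tested. Of 9 clock genes 4 moved down, against 1.48% of all tested probe sets. Nr1d1 moved by -3.23 ± 0.40, from 1.16 at 3 weeks to -2.07 at 15 weeks. Spp1 and Pdk4, which did not pass at 3 weeks, moved up by 2.59 ± 0.56 and 3.54 ± 0.78. Alox15 moved up by 3.86 ± 0.27 at the brighter probe set, from 0.01 at 3 weeks, and by 4.84 ± 0.45 at the dimmer one, from 1.02. Slc2a1 went from -0.70 to 0.75 at its brightest probe set, and at the dim one its shift of 1.11 ± 0.47 did not pass.

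**Figure D5:**
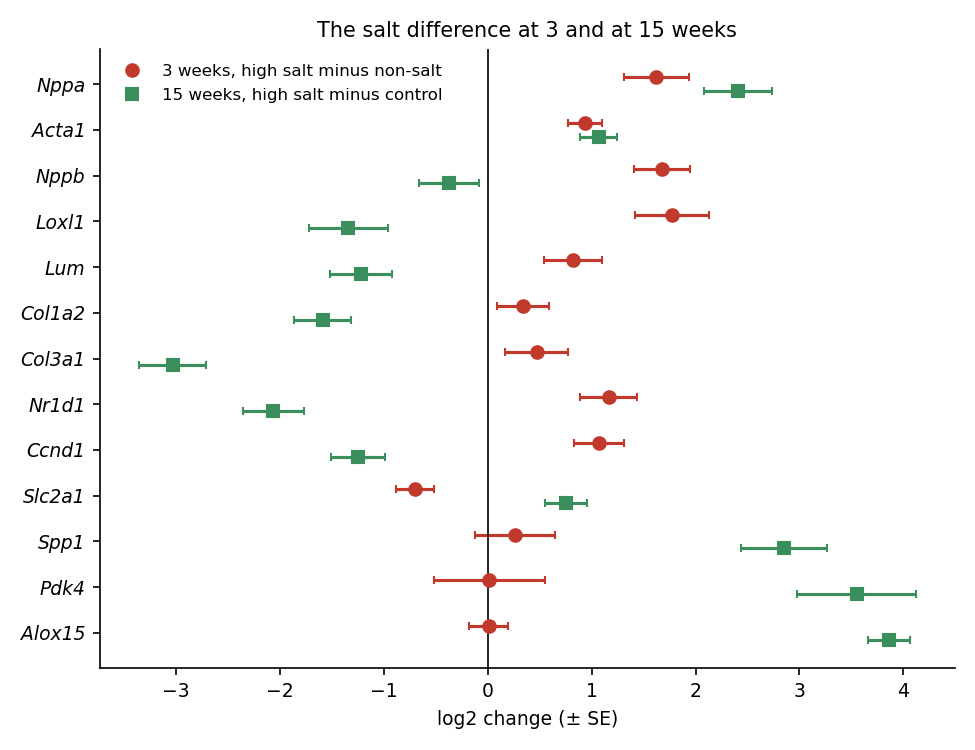
Log2 change ± SE of 13 genes with salt at 3 weeks (red circles, against non-salt arrays) and at 15 weeks (green squares, against control arrays). Nppa and Acta1 are right of 0 at both times, Nppb, Loxl1, Lum, Nr1d1 and Ccnd1 (probe set X75207_s_at) right of 0 at 3 weeks and left of it at 15 weeks, and Spp1, Pdk4 and Alox15 (brighter probe set) lie farther right at 15 than at 3 weeks; the dimmer probe set of Alox15, not drawn, was at 1.02 at 3 weeks.

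Against the 6-week difference, 50 probe sets departed, 0.763% of those tested. The 6-week controls had GAPDH ratios of 1.58 to 3.99, and with that ratio as a covariate 4 probe sets departed. Single 3-week arrays moved the count too: it was 8 without control 2, 14 without control 3, and 9, 10 and 8 without high salt arrays 1, 2 and 3. At 6 weeks Nppa rose by 2.41, Nppb by 1.91 and Acta1 by 1.07, and their interactions did not pass (adjusted p = 0.414 to 0.855). Hba-a3 was the called gene that departed, with a salt difference of -0.88 at 6 weeks and a shift of -1.88 (adjusted p = 0.00552).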

How the data were processed

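Left ventricular RNA of Dahl salt-sensitive rats had been hybridised to an Affymetrix rat array of 8799 probe sets. The authors deposited 1 linear intensity per probe set and array, scaled so that the 2% trimmed mean was 499.3 to 500.9, as tested on the values; for the software and background correction, the sources used here give nothing. Of the 24 deposited columns 22 were distinct. The 59 control probe sets were left out, and values were taken as log2(intensity + 40). Probe sets with a mean at or above the 25th percentile were kept (6555), and list counts used, for each of 3826 genes, the probe set with the highest mean. Names came from the platform annotation, which gave 7018 probe sets 1 symbol, 308 several and 1473 none.

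All 22 arrays, in 7 sets, were fitted with limma 3.58.1 in R 4.3.3 with an intensity trend, sharing 15 residual degrees of freedom, with Benjamini-Hochberg adjustment over the 6555 probe sets and a threshold of 0.05. The procedure was tested on simulated data. Named were, in each direction, up to 12 called probe sets of largest change with 1 symbol and no overlap between groups, filled to 12 by smallest p; up to 3 genes of smallest p from each list; and 22 genes always named. The rule gave 117 genes, and only some of them are printed here. Another 9 outside the rule, Alas2, Bgn, Bhlhe41, Cd36, Ech1, Hbb-b1, Kcnq1, Mmp14 and Sod2, were chosen after their values were seen. The members and lists were chosen with earlier results of these data known. Alternatives covered the pseudocount, the filter, normalization, which arrays entered, array weights, RNA ratios and leaving out each array. Same-numbered arrays did not deviate together (correlations -0.12 to 0.05), so the numbers were not taken to pair them.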

Additional observations from a re-analysis of the deposited data

Results flagged for a closer look

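Among the values named, 24 had a salt difference that departed between 3 and 15 weeks by the interaction contrast in limma (adjusted p under 0.05). Of all tested probe sets 2.4% did. Many values were named for a small p or large change at 3 weeks, and the contrast subtracts that same difference. This choice pulls the shift down for genes named as higher and up for those named as lower. The shift, 15 minus 3 weeks on the log2 scale, was downward for Nppb (-2.05), Loxl1 (-3.11), Eln (-1.32), Lum (-2.04), Col1a1 (-1.53), Col1a2 (-1.93), Col3a1 (-3.51), Nr1d1 (-3.23), Bhlhe40 (-1.24), Bhlhe41 (-1.55), Dbp (-3.36), Ptgis (-1.58) and the X75207_s_at probe set of Ccnd1 (-2.32). It was upward for Spp1 (2.59), Alas2 (1.75), Slc4a1 (2.29), Cpt1a (0.90), Slc2a1 (1.46), Pdk4 (3.54), Alox15 (3.86) and Sult1a1 (2.41). Further probe sets of Loxl1, Ccnd1 and Alox15 shifted by -2.80, -2.56 and 4.84. Between 3 and 6 weeks the shift was -1.88 for Hba-a3, -1.19 for Hbb-b1, 3.77 for Pdk4, -2.40 for Nr1d1, -3.68 for Dbp, -1.72 for Ccnd1, -2.30 for the dimmer probe set of Alox15 and 2.00 for a further probe set of Myh6. The 3-week salt arrays enter both shifts.

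In 7 of 89 probe sets 1 of the 4 non-salt arrays lay far from the other 3 by Dixon's criterion, which chance meets in about 1 of 20 groups. Control 2 was lowest for Col1a1 (4446) and Per2 (440) and highest for Pdk4 (1414). Control 1 was highest for Eno3 (1465) and lowest for Kcna4 (131). The exercise array was lowest for the brightest probe set of Fkbp1a (2148) and highest for a second probe set of Agtr1a (147).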

How the results depend on the processing

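As their arrays did not overlap between the groups, leaving out, repeating or weighting arrays could not turn the sign of the 10 called probe sets. They kept it in all 21 alternatives. Their count of 10 was 7 after quantile normalization, all 7 higher with salt, so that Cbr1 did not pass there. It was 6 without the intensity filter and 6 without the intensity trend, 100 with the 3-week arrays alone, and 18 without the 6-week controls. With array weights it was 145, with only the arrays of 1 label 1 (Nppb), and with all columns as deposited 35. It was 3 with the beta-actin ratio, and 0 to 8 with 1 array left out. With the replicate block the count was 12, holding all 10, and the counts of shifts were 149 at 15 weeks and 23 at 6 weeks.

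The 157 shifts between 3 and 15 weeks became 498 with array weights, 62 with 1-label arrays, 268 with all columns, and 101 to 151 with 1 array left out. The 50 shifts between 3 and 6 weeks became 15 without the filter, 4 with the GAPDH ratio, 710 with array weights, 23 without the trend, 6 with 1-label arrays, 245 with all columns, 2 with the beta-actin ratio, and 8 to 41 with 1 array left out. In the counts with all columns the repeated arrays were again entered as extra ones. The cause of these changes in count was not tested.

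Each of 89 named values was recomputed under the 21 alternatives. The sign turned in 49 of these recomputations, which belong to 12 values, none of them called. Pdk4 gave -0.023 with a pseudocount of 160, -0.11 with the GAPDH ratio, -0.049 with array weights, -0.20 with all columns and -0.41 with the beta-actin ratio. Myh6 gave -0.045 after quantile normalization, -0.0088 with the GAPDH ratio, -0.041 with 1-label arrays and -0.088 with the beta-actin ratio. Alox15 gave -0.0037 with the replicate block, -0.039 with array weights and -0.036 with all columns. Atp2a2 gave 0.0185 with array weights and 0.011 with all columns, and Col1a1 -0.080 with 1-label arrays. Those arrays also turned the brightest probe sets of Pkia (0.042), Plcl1 (-0.032) and Acta2 (0.066) and the second of Agtr1a (-0.20), and the beta-actin ratio turned Acta2 (0.23) and the second of Slc4a1 (-0.0051). With 1 array left out the ranges were -0.25 to 0.48 (Pdk4), -0.12 to 0.14 (Myh6), -0.20 to 0.19 (Alox15), -0.10 to 0.068 (Atp2a2), -0.088 to 0.18 (Col1a1), -0.038 to 0.45 (Dbp), -0.012 to 0.33 (Myh7), and, at the same further probe sets, -0.16 to 0.079 (Pkia), -0.20 to 0.46 (Plcl1), -0.12 to 0.0044 (Acta2), -0.027 to 0.41 (Agtr1a) and -0.081 to 0.15 (Slc4a1).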
